A study of Arabidopsis thaliana with 6 samples.

Results

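The nuclear genes for the photosystems, their light-harvesting antennae and the small subunit of Rubisco were followed in Arabidopsis thaliana seedlings in which the stomatal lineage transcription factor MUTE was induced. The set was chosen by gene family and holds 47 loci: 14 for antenna proteins of photosystem II, 6 for antenna proteins of photosystem I, 12 for photosystem I subunits, 10 for photosystem II subunits, and 5 for the Rubisco small subunit and Rubisco activase. They correspond to 44 of the 33511 rows of the expression table. Of the loci, 42 have a row of their own. The row LHCB2 carries a name shared by 3 loci and the row PSBQ a name shared by 2. Which locus each row holds is not stated, so both are given by the row's name. Neither can be read as the level of all loci that share its name, and some of these loci may have no values here.

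All 6 libraries came from whole seedlings of a homozygous Col-0 line that carried the MUTE cDNA in pER8, a plasmid that switches its insert on through an artificial activator responding to estradiol. At 4 days of age, sets of 40 to 50 seedlings were placed for 8 h in liquid medium with 10 µM estradiol (3 libraries) or with the solvent DMSO (3 libraries, called mock). The mock seedlings carry the construct as well, so the response to MUTE cannot be told apart from a response to the inducer or the activator itself. MUTE stood at 2.37 ± 0.817 FPKM (SD, n = 3) in mock and at 2986 ± 54.8 FPKM (SD, n = 3) in estradiol, a log2 change of 9.82 (limma, adjusted p = 2.67e-08).

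In the chloroplast, light is collected by antenna proteins that bind chlorophyll and pass the energy to the reaction centres of photosystem II and photosystem I. The antenna proteins of photosystem II are encoded by LHCB genes and those of photosystem I by LHCA genes. PSB and PSA genes encode subunits of the photosystems themselves, of which only some are nuclear. Rubisco fixes carbon dioxide: its large subunit is encoded in the chloroplast and its small subunit by a family of nuclear RBCS genes, while Rubisco activase (RCA) frees its active sites of inhibitory sugar phosphates. These transcripts are among the most abundant of green tissue, and they rise with light and with chloroplast development.

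Several of these genes are near-identical copies, which matters for how their values can be read. CAB1, CAB2 and CAB3 are the table's names for LHCB1.3, LHCB1.1 and LHCB1.2, which lie next to each other on chromosome 1. Their coding sequences of 804 bases are 95.6% to 96.4% identical, and they differ from each other at 47 positions. Coding bases 145 to 264 (TAIR10.1) are shown because they hold 11 of those positions, in capitals.
CAB1: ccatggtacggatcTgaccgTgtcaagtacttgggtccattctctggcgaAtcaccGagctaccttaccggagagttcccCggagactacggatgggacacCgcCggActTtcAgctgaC
CAB2: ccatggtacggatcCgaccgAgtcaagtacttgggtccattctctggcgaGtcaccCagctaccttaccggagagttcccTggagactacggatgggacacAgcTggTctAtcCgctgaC
CAB3: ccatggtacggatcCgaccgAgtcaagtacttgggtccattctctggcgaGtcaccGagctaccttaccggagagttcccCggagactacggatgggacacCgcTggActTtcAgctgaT

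RBCS1B, RBCS2B and RBCS3B form a cluster on chromosome 5, and RBCS1A lies alone on chromosome 1. RBCS1B and RBCS2B are 97.3% identical over their coding sequences, while RBCS1A is 87.7% to 90.1% identical to the clustered copies. Bases 10 to 129 of the RBCS2B coding sequence and the aligned bases of the other copies (TAIR10.1) show how the copies can be told apart. Capitals mark the 27 positions at which the 4 differ. At 15 of them RBCS1A alone differs and the clustered copies are alike.
RBCS1A: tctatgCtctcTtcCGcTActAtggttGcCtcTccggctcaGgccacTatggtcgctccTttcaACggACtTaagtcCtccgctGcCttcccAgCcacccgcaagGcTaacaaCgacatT
RBCS1B: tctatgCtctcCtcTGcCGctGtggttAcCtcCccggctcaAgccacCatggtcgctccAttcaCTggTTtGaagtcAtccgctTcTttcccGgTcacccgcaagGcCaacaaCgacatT
RBCS2B: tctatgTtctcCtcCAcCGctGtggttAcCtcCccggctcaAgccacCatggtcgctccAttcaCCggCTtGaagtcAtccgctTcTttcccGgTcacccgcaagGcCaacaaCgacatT
RBCS3B: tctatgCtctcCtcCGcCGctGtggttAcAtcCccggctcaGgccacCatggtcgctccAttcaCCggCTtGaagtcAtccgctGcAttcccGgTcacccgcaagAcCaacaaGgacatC

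A read of 50 bases that falls in a stretch shared by copies cannot be placed by its own sequence, though its mate can place the pair where that lies in an unshared stretch. The shares that follow are for single stretches, not for pairs. Of all 50-base stretches of the transcript, 20.5% occur in another gene for CAB2, 17% for CAB1, 10.6% for CAB3, 13.7% for LHB1B1 (LHCB1.4) and 17.3% for LHB1B2 (LHCB1.5). The share was 21.4% for RBCS2B, 18.4% for RBCS3B, 13.8% for RBCS1B and 1.48% for RBCS1A. How the authors' quantification divided such reads is not given in the sources used here, so values of single copies are uncertain and sums over copies are given beside them.

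Expression is given in FPKM, read fragments scaled for transcript length and for the size of the library, as the authors deposited it, so levels of different genes can be compared per length. Changes are differences of log2(FPKM + 1), estradiol minus mock, from a fit with limma over the 19134 genes with at least 1 FPKM in at least 3 libraries, and a gene is called at a Benjamini-Hochberg adjusted p under 0.05 over all of them. All 44 rows passed this filter. Their values ran from 7.60 FPKM (LHCB4.3) to 7711 FPKM (RBCS2B), with a median mock mean of 512.3 FPKM against 7.33 over all genes tested, and 23 of the 100 rows with the highest mock means were among them. Together they made up 9.56% to 10.3% of the summed FPKM of the mock libraries and 9.64% to 10.5% of that of the estradiol libraries, ranges that overlap.

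Most of these genes moved little, and the ones that moved went both ways. Of the 44 rows, 8 rose, 9 fell and 27 did not pass the threshold. The background was high: 36.2% of all genes tested were called, 23.3% as higher and 12.9% as lower, beside 38.6% of the photosynthesis rows, 18.2% as higher and 20.5% as lower. The groups did not overlap for 20 rows, 11 of them higher and 9 lower in estradiol, and for 51% of all genes tested (33.7% higher, 17.4% lower). The median change was 0.04 on the log2 scale, against 0.048 over all genes, and 28 rows changed by less than 0.2. Only CAB3 and LHB1B2 were called with a change of at least 1.5-fold. The split of calls moved with the scaling of the libraries: 47.1% of the calls among the 44 rows were higher as deposited, 60% after quantile normalization (12 higher, 8 lower) and 30.8% with median-of-ratios size factors (4 higher, 9 lower). For all genes these shares were 64.3%, 52.8% and 46.9%.

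**Figure D1:**
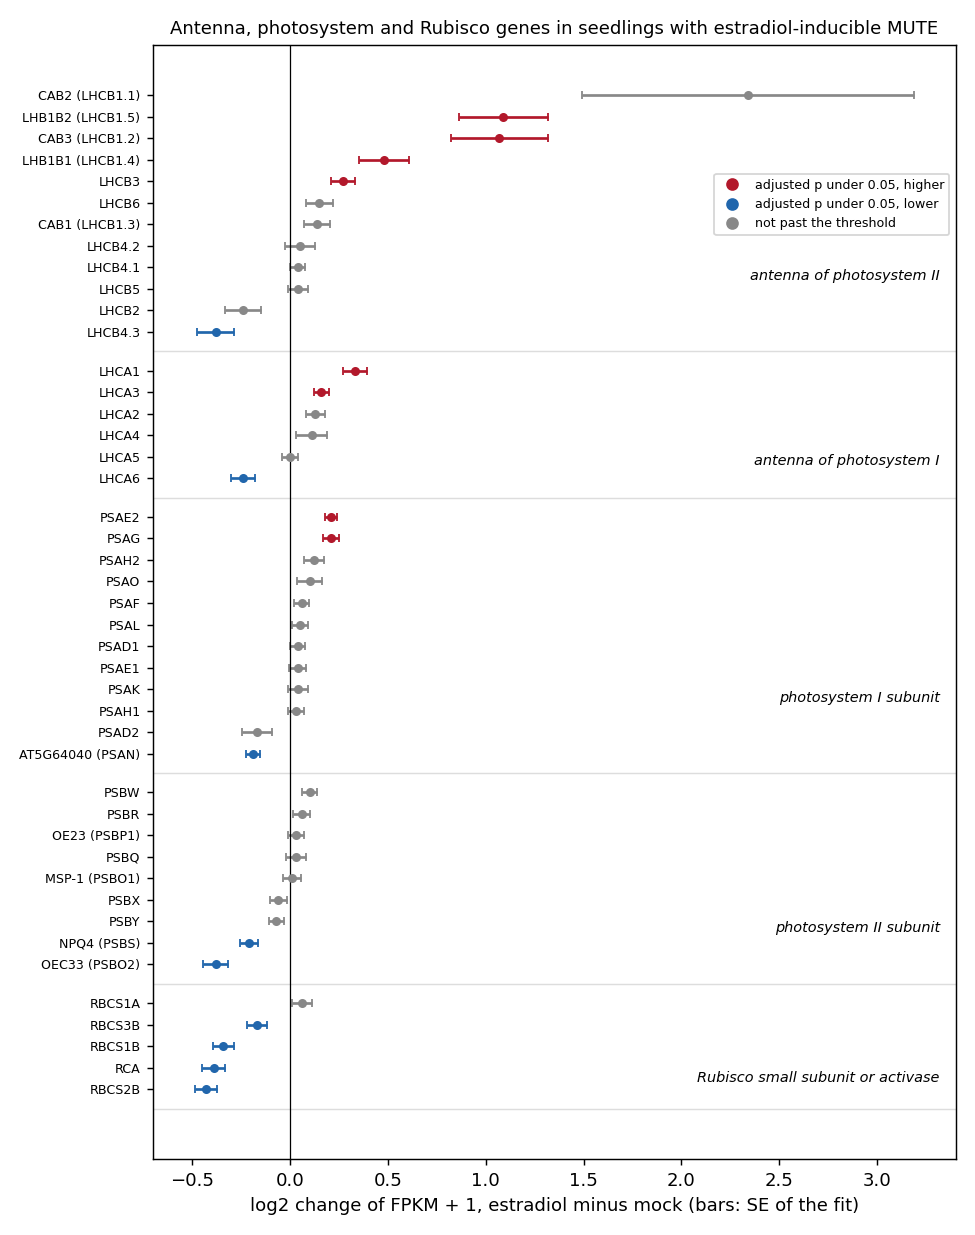
Log2 change of FPKM + 1 (estradiol minus mock, x axis) for each of the 44 rows, grouped by role, with the standard error of the limma fit as bars and the call as colour. The rows called higher lie in the antennae and photosystem I, the 4 called rows of the Rubisco group are all lower, and CAB2 has by far the widest error (SE 0.848).

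The antenna of photosystem II held the largest changes, and these were in LHCB1, the most abundant antenna protein of the trimers that surround the photosystem. Of the 12 rows of this antenna, 4 rose (CAB3, LHB1B1, LHB1B2 and LHCB3), 1 fell (LHCB4.3) and 7 did not pass the threshold. Over all genes tested, 23.3% rose and 12.9% fell. With median-of-ratios size factors 2 of the 4 rises in this antenna kept their call, those of CAB3 and LHB1B2. The estradiol libraries did not behave alike in LHCB1, so the values of each library come first.

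CAB2 stood at 198, 221 and 229 FPKM in mock replicates 1 to 3, and at 3399, 215 and 1800 FPKM in estradiol replicates 1 to 3. Estradiol 1 and 3 were far above every mock library, while estradiol 2 lay within the mock range, so the groups overlapped. The fitted change of 2.34 (SE 0.848) did not pass the threshold (limma, adjusted p = 0.0624). Without estradiol 1 and 3, which leaves 1 estradiol library that is assumed to vary like the others, the change was -0.00 (adjusted p = 0.985). It passed the threshold in 2 of the 14 alternative analyses, without estradiol 2 (3.51; adjusted p = 7.09e-05) and with a filter at 5 FPKM (adjusted p = 0.046), and without estradiol 1 it was 1.53 (adjusted p = 0.146).

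CAB3 stood at 685, 741 and 815 FPKM in mock and at 2239, 997 and 1706 FPKM in estradiol. Every estradiol library was above every mock library, with estradiol 2 again the lowest of its group. CAB3 rose by 1.07 (SE 0.249; limma, adjusted p = 0.0121), and it was called in all 14 alternatives, with a change of 0.42 (adjusted p = 0.028) without estradiol 1 and 3.

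LHB1B2 stood at 217, 250 and 301 FPKM in mock and at 746, 374 and 573 FPKM in estradiol. The groups did not overlap and the order of the estradiol libraries was that of CAB3. LHB1B2 rose by 1.09 (SE 0.227; limma, adjusted p = 0.0075), and without estradiol 1 and 3 the change was 0.56 (adjusted p = 0.0537).

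LHB1B1, its neighbour on chromosome 2, stood at 145, 197 and 216 FPKM in mock and at 274, 255 and 243 FPKM in estradiol. Here the 3 estradiol libraries were close to each other and all above mock. LHB1B1 rose by 0.48 (SE 0.130; limma, adjusted p = 0.0214), a call that was lost in 4 of the 14 alternatives, among them median-of-ratios size factors (adjusted p = 0.0579), estradiol 1 left out (0.44; adjusted p = 0.0561) and estradiol 1 and 3 left out (0.47; adjusted p = 0.143). Without mock 1, the lowest library, its change was 0.31 (adjusted p = 0.0121).

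CAB1, the most abundant antenna transcript, stood at 4307, 4659 and 4905 FPKM in mock and at 5426, 4846 and 5043 FPKM in estradiol. The groups overlapped, estradiol 2 lying below mock 3, and the change of 0.14 (SE 0.0663) did not pass the threshold (limma, adjusted p = 0.126). After quantile normalization it did, at 0.28 (adjusted p = 0.00655), and without mock 1 the change was 0.093 (adjusted p = 0.328). Quantile normalization gives each row a value set by its rank alone. CAB1 ranked 4 by mock mean and 3 by estradiol mean, so its change under that setting is a change of rank.

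**Figure D2:**
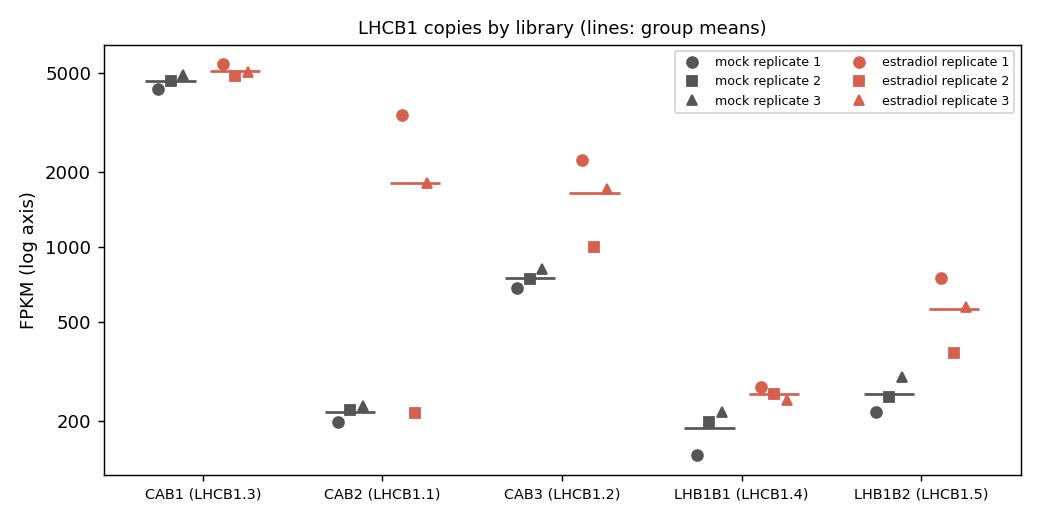
FPKM (log axis) of the 5 LHCB1 copies in each library, with symbols for the replicate and lines for group means. CAB2 is at 3399 and 1800 FPKM in estradiol 1 and 3 and at 215 FPKM in estradiol 2, inside the mock range, and CAB3 and LHB1B2 keep the same order of estradiol libraries.

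Summed over copies, CAB1 to CAB3 came to 5190, 5621 and 5949 FPKM in mock and to 11064, 6058 and 8550 FPKM in estradiol. The sum was above every mock library in each estradiol library, but in estradiol 2 by little. Its change of 0.57 (SE 0.187; limma, adjusted p = 0.0439) lost its call in 11 of the 14 alternatives, with a change of 0.18 after quantile normalization (adjusted p = 0.126), 0.37 without estradiol 1, 0.55 without estradiol 3 and 0.52 to 0.62 without 1 of the mock libraries (adjusted p = 0.082 to 0.116), and without estradiol 1 and 3 it was 0.12 (adjusted p = 0.397). Without estradiol 2 it was 0.80 (adjusted p = 0.00232). The sum of LHCB1.4 and LHCB1.5 rose by 0.88 (limma, adjusted p = 0.00673), and without estradiol 1 and 3 the change was 0.52 (adjusted p = 0.0803).

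Estradiol 1 and 3 also differed from estradiol 2 in some genes outside LHCB1, though no such count for other libraries is given beside it. In 60 of the 19134 genes (0.314%) both were at least 1.5 times estradiol 2, and CAB2, CAB3 and LHB1B2 are 3 of them. In 89 genes both were lower than estradiol 2 by that ratio. For the other 41 rows of the photosynthesis set the ratio of estradiol 1 to estradiol 2 was 0.827 to 1.2 and that of estradiol 3 to estradiol 2 was 0.897 to 1.16. Among the 53 of the 60 genes for which it could be computed, 32.1% shared at least 20% of their 50-base stretches with another gene, against 2.72% of 18720 genes tested. No such share is given here for the 89 genes that were lower, so it cannot be called particular to the 60. CAB2 (20.5%) reaches the limit of 20%, while CAB3 (10.6%) and LHB1B2 (17.3%) do not. CAB1, at 17%, had a ratio of estradiol 1 to estradiol 2 of 1.12. Rows at 0 FPKM numbered 9514 in estradiol 1 and 9182 in estradiol 3, and 8559 to 8679 in the other 4 libraries. The part of shared sequence or of the 2 libraries in the LHCB1 changes was not tested.

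The remaining antenna proteins of photosystem II moved by less than LHCB1. LHCB3, the third protein of the antenna trimers, stood at 117, 127 and 140 FPKM in mock and at 152, 157 and 152 FPKM in estradiol. The groups did not overlap, and LHCB3 rose by 0.27 (SE 0.0605; limma, adjusted p = 0.0109), a call lost under median-of-ratios size factors (adjusted p = 0.0641) and without estradiol 1 and 3 (adjusted p = 0.0759). The row LHCB2 stood at 10.5, 12.4 and 13.7 FPKM in mock and at 10.7, 9.20 and 10.7 FPKM in estradiol, with overlapping groups and a change of -0.24 (limma, adjusted p = 0.0766), which passed the threshold without mock 1 (-0.33; adjusted p = 0.0185) and was -0.16 without mock 3 (adjusted p = 0.226). Because 3 loci share this name and the one behind the row is not stated, these low values do not give the level of LHCB2 as a whole.

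The minor antenna proteins LHCB4, LHCB5 and LHCB6 connect the trimers to the core of photosystem II. LHCB4.3, a low form of LHCB4, stood at 10.0, 10.8 and 12.9 FPKM in mock and at 7.60, 9.19 and 8.24 FPKM in estradiol. All estradiol libraries were below all mock libraries, and LHCB4.3 fell by 0.38 (SE 0.093; limma, adjusted p = 0.0141). The abundant form LHCB4.1 had 780 ± 24.9 FPKM in mock and 803 ± 15.5 FPKM in estradiol (SD, n = 3), a change of 0.04 (limma, adjusted p = 0.411). The other rows were LHCB4.2 at 0.05, LHCB5 at 0.04 and LHCB6 at 0.15 (limma, adjusted p = 0.665, 0.637 and 0.124), and LHCB6 passed the threshold without mock 3 (0.22; adjusted p = 0.0385) and stood at 0.084 without mock 1 (adjusted p = 0.335).

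In the antenna of photosystem I, 2 of 6 rows rose and 1 fell, beside 23.3% and 12.9% of all genes tested. The other 3 did not pass the threshold. LHCA1, which pairs with LHCA4 in the antenna belt, stood at 36.2, 42.7 and 42.1 FPKM in mock and at 50.2, 52.3 and 49.6 FPKM in estradiol. The groups did not overlap, and LHCA1 rose by 0.33 (SE 0.0611; limma, adjusted p = 0.00476) and was called in all 14 alternatives. LHCA3 stood at 177, 187 and 192 FPKM in mock and at 207, 212 and 205 FPKM in estradiol. These ranges did not overlap either, and LHCA3 rose by 0.16 (SE 0.0379; limma, adjusted p = 0.0114), a call lost under median-of-ratios size factors (adjusted p = 0.121) and without estradiol 1 and 3 (adjusted p = 0.0707).

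LHCA6, a minor protein that helps to join photosystem I to the NADH dehydrogenase-like complex, was the member of this antenna that fell. It stood at 59.8, 66.2 and 70.2 FPKM in mock and at 56.0, 56.8 and 52.6 FPKM in estradiol, without overlap, and fell by 0.24 (SE 0.0594; limma, adjusted p = 0.015). LHCA5, which acts at the same junction, stood at 50.0, 50.1 and 54.4 FPKM in mock and at 50.2, 52.3 and 52.0 FPKM in estradiol. Its groups overlapped and its change was 0.00 (SE 0.0411; limma, adjusted p = 0.995). LHCA2, the highest transcript of this antenna, stood at 675, 740 and 761 FPKM in mock and at 803, 790 and 780 FPKM in estradiol, groups that did not overlap, with a change of 0.13 (SE 0.0492; limma, adjusted p = 0.0776). It passed the threshold after quantile normalization (0.16; adjusted p = 0.0339) and was at 0.076 without mock 1 (adjusted p = 0.199). LHCA4 had a change of 0.11 (limma, adjusted p = 0.289), with 0.028 without mock 1 and 0.18 without mock 3. The ratio of LHCA1 to LHCA6 was 0.606, 0.644 and 0.599 in the mock libraries and 0.897, 0.921 and 0.943 in the estradiol libraries.

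Of the 12 photosystem I subunits, 2 rose and 1 fell, beside 23.3% and 12.9% of all genes tested, and 9 did not pass the threshold. PSAE and PSAD sit on the stromal side of the complex, where ferredoxin docks, and each is encoded by a pair of genes. PSAE2 stood at 205, 213 and 214 FPKM in mock and at 246, 245 and 241 FPKM in estradiol. Libraries of a group differed by little and the groups did not overlap: PSAE2 rose by 0.21 (SE 0.0319; limma, adjusted p = 0.00183) and was called in all 14 alternatives. Its more abundant partner PSAE1 had 506 ± 25.3 FPKM in mock and 519 ± 6.16 FPKM in estradiol (SD, n = 3), a change of 0.04 (limma, adjusted p = 0.51).

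PSAG, a membrane subunit at the edge that faces the antenna, was the most abundant subunit transcript of photosystem I. It stood at 1001, 1068 and 1066 FPKM in mock and at 1217, 1214 and 1201 FPKM in estradiol. There was no overlap, and PSAG rose by 0.21 (SE 0.0401; limma, adjusted p = 0.00488), a call lost under median-of-ratios size factors (adjusted p = 0.0615) and without estradiol 1 and 3 (adjusted p = 0.0598). PSAN, a subunit on the lumenal side near the docking site of plastocyanin, stood at 212, 219 and 223 FPKM in mock and at 194, 193 and 186 FPKM in estradiol. All estradiol libraries lay below mock, and PSAN fell by 0.19 (SE 0.0349; limma, adjusted p = 0.00472).

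The 9 photosystem I rows that were not called had changes of -0.17 to 0.12. PSAD2 was the lowest, at 130, 133 and 140 FPKM in mock and 136, 115 and 109 FPKM in estradiol, with estradiol 1 inside the mock range (change -0.17; limma, adjusted p = 0.121). Without estradiol 1 its change was -0.26 (adjusted p = 0.00572), and without estradiol 3 it was -0.10 (adjusted p = 0.316). PSAH2 was the highest at 0.12 (limma, adjusted p = 0.0958), and at 0.16 without estradiol 3 (adjusted p = 0.0407). PSAF, which binds plastocyanin, had a change of 0.06 (limma, adjusted p = 0.224) with groups that did not overlap, and PSAD1, PSAH1, PSAK, PSAL and PSAO had changes of 0.03 to 0.10.

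Among the 9 photosystem II subunits none rose and 2 fell, beside 23.3% and 12.9% of all genes tested, and 7 did not pass the threshold. The subunits in this set include PSBO, PSBP and PSBQ, which shield the oxygen-evolving centre on the lumenal side, and PSBS, the sensor of lumen acidity that switches on thermal dissipation of excess light. PSBO2 (row OEC33) stood at 371, 406 and 447 FPKM in mock and at 311, 324 and 303 FPKM in estradiol. The groups were well apart, and PSBO2 fell by 0.38 (SE 0.0648; limma, adjusted p = 0.00315). The main form PSBO1 (row MSP-1) stood at 1435, 1515 and 1591 FPKM in mock and at 1550, 1508 and 1502 FPKM in estradiol. The estradiol libraries lay inside the mock range, with a change of 0.01 (SE 0.0473; limma, adjusted p = 0.922), and the sum of both forms changed by -0.07 (limma, adjusted p = 0.339).

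PSBS (row NPQ4) stood at 234, 249 and 256 FPKM in mock and at 207, 224 and 207 FPKM in estradiol. Every estradiol library was below every mock library, and PSBS fell by 0.21 (SE 0.0465; limma, adjusted p = 0.00958). PSBW, a small membrane subunit, was at the other end, at 634, 669 and 660 FPKM in mock and 690, 724 and 697 FPKM in estradiol. Its groups did not overlap, but its change of 0.10 (SE 0.0384) did not pass the threshold (limma, adjusted p = 0.0656). The 7 rows not called, which include PSBP1 (row OE23), PSBQ, PSBR, PSBX and PSBY, had changes of -0.07 to 0.10. The calls of PSBO2, PSBS, PSAN, LHCA6, LHCB4.3 and LHB1B2 were lost in 1 alternative each, the one without estradiol 1 and 3.

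The Rubisco group was the one in which most rows fell. Of its 5 rows, 4 fell (RBCS1B, RBCS2B, RBCS3B and RCA), where 12.9% of all genes tested fell, and RBCS1A did not pass the threshold. The RBCS genes hold the most abundant transcripts of the set: by mock mean the 3 highest rows of the table were RBCS2B, RBCS1A and RBCS1B. The median change of the group was -0.34.

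RBCS2B stood at 6980, 7254 and 7711 FPKM in mock and at 5298, 5646 and 5351 FPKM in estradiol. The lowest mock library was well above the highest estradiol library. RBCS2B fell by 0.43 (SE 0.0568; limma, adjusted p = 0.000962), or by 0.28 after quantile normalization (adjusted p = 0.00726). That setting keeps only ranks, and RBCS2B went from rank 1 by mock mean to rank 2 by estradiol mean. RBCS1B stood at 5257, 5367 and 5727 FPKM in mock and at 4180, 4453 and 4273 FPKM in estradiol. It too separated the groups, and fell by 0.34 (SE 0.0532; limma, adjusted p = 0.00206). RBCS3B stood at 3499, 3667 and 3799 FPKM in mock and at 3139, 3356 and 3255 FPKM in estradiol. The gap between the groups was narrower, and its fall of 0.17 (SE 0.0506; limma, adjusted p = 0.032) lost its call in 8 of the 14 alternatives. These included leaving out mock 2, mock 3, estradiol 1 or estradiol 3, with changes of -0.17 to -0.14 and adjusted p of 0.0513 to 0.115, and the replicate block (adjusted p = 0.0571).

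RBCS1A, alone on chromosome 1, stood at 5872, 6246 and 6149 FPKM in mock and at 6201, 6260 and 6539 FPKM in estradiol. The groups overlapped, and the change of 0.06 (SE 0.0507) did not pass the threshold (limma, adjusted p = 0.412). After quantile normalization, which keeps only ranks, its change was 0.24 (adjusted p = 0.00583). RBCS1A ranked 2 by mock mean and 1 by estradiol mean. RBCS1A was thus the highest row of the table by estradiol mean, where RBCS2B was the highest by mock mean.

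RCA stood at 703, 791 and 805 FPKM in mock and at 581, 608 and 566 FPKM in estradiol. Mock and estradiol did not overlap, and RCA fell by 0.39 (SE 0.0575; limma, adjusted p = 0.00164). RBCS1B, RBCS2B and RCA were called lower in all 14 alternatives.

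**Figure D3:**
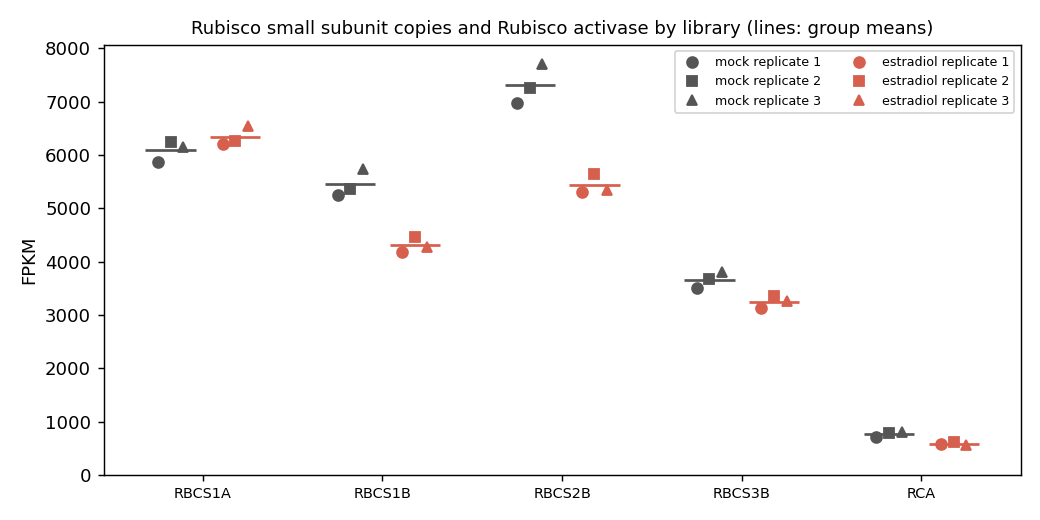
FPKM of the 4 Rubisco small subunit genes and Rubisco activase in each library, with symbols for the replicate and lines for group means. RBCS1B, RBCS2B, RBCS3B and RCA are lower in every estradiol library than in any mock library, while RBCS1A overlaps (5872 to 6246 FPKM in mock, 6201 to 6539 FPKM in estradiol).

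Because RBCS1A shares few stretches with other genes, the sum of RBCS1B to RBCS3B was set against RBCS1A. The sum came to 15737, 16288 and 17237 FPKM in mock and to 12617, 13455 and 12880 FPKM in estradiol. It fell by 0.34 (SE 0.0628; limma, adjusted p = 0.00455). The call was lost without a filter (adjusted p = 0.275), after quantile normalization, where this sum is the highest row of every library and is set equal by construction (change -0.00), and without estradiol 1 and 3 (adjusted p = 0.0733).

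Ratios between copies within a library do not depend on the size factor of the library. The clustered copies amounted to 2.68, 2.61 and 2.80 times RBCS1A in mock and to 2.03, 2.15 and 1.97 times RBCS1A in estradiol. Every mock library was higher than every estradiol library. Within the cluster, RBCS2B over RBCS3B was 1.99, 1.98 and 2.03 in mock and 1.69, 1.68 and 1.64 in estradiol.

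PSBO2 over PSBO1 was 0.259, 0.268 and 0.281 in mock and 0.201, 0.215 and 0.202 in estradiol. PSAE2 over PSAE1 went the other way, at 0.431, 0.411 and 0.410 in mock and 0.481, 0.467 and 0.463 in estradiol. CAB3 over CAB1 was 0.159, 0.159 and 0.166 in mock and 0.413, 0.206 and 0.338 in estradiol. In CAB2 over CAB1, estradiol 2 (0.0444) lay below the mock libraries (0.046 to 0.0474) and the other 2 estradiol libraries above them. The pairs were chosen with the values of their members known, so these ratios are a description. An exact permutation test was run on them, but with 3 against 3 libraries its p cannot go below 0.1. It therefore could not pass a threshold of 0.05, and nothing is drawn from it.

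**Figure D4:**
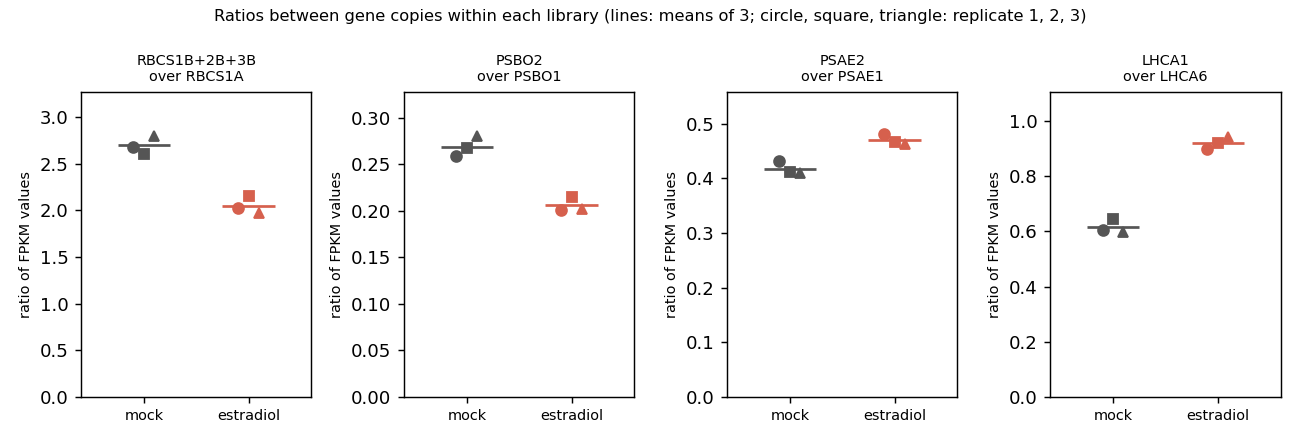
Ratio of FPKM values within each library for 4 pairs of related transcripts, from 0, with symbols for the replicate and lines for the mean of 3 libraries. The clustered RBCS copies over RBCS1A and PSBO2 over PSBO1 are lower in all estradiol libraries, and PSAE2 over PSAE1 and LHCA1 over LHCA6 are higher.

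The sequence before the gene start was read for motifs known from light-regulated promoters. The G-box (CACGTG) is bound by light-signalling factors such as HY5, the I-box (GATAAG) holds the core recognised by GATA factors, and the clock protein CCA1 binds AAAAATCT or AACAATCT in an LHCB1 promoter. Both strands were searched in the 250 bases before each annotated start. A G-box stood in 9 of the 47 promoters (19.1%), against 6.49% of all 27443 promoters. An I-box stood in 11 (23.4% against 12.3%) and a CCA1 site in 6 (12.8% against 8.38%). These are descriptions of letters and not of bound sites.

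The promoters of RBCS2B, RCA and RBCS1A are shown because the first pair of genes fell and RBCS1A did not pass the threshold. RBCS2B (chr5:15382072-15382321, minus strand) holds 1 G-box and 3 I-boxes, RCA (chr2:16573693-16573942, minus strand) holds 1 I-box, and RBCS1A (chr1:25049668-25049917, minus strand) holds none of the 3 motifs in this window. Sequences are from RefSeq's TAIR10.1 and read 5′ to 3′ along the gene, with matches on either strand in capitals.
RBCS2B promoter: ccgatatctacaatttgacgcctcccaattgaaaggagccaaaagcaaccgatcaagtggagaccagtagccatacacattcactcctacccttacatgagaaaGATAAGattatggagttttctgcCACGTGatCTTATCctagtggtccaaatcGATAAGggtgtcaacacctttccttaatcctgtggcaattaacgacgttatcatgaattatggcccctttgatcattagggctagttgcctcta
RCA promoter: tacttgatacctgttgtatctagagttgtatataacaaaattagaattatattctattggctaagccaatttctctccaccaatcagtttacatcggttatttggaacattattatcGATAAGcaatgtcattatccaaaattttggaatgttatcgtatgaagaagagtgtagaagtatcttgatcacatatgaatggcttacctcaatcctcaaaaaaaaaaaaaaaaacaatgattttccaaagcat
RBCS1A promoter: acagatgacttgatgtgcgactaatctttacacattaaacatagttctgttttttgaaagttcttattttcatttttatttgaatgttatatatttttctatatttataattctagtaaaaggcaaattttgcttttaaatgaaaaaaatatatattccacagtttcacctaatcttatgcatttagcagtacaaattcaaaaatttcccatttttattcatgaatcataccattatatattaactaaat

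No match to the 3 motifs stood in the searched windows of RBCS1B and RBCS3B, which fell, or of RBCS1A. Within the Rubisco group a G-box was found in the window of RBCS2B alone. The RBCS1B window ends in gataa, inside a stretch that resembles the bases just before the I-boxes of RBCS2B. Bases after the end of each window were not searched, so these absences do not show that the clustered copies differ in motifs. The window depends on the annotated start, and a motif inside the annotated transcript was not counted. These transcripts are 1268 bases for RBCS1A, 1894 for RBCS1B, 935 for RBCS2B and 1184 for RBCS3B, with 543 to 561 coding bases.

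Beside the set, the other nuclear genes of photosynthesis were mostly lower or not called. Their counts stand against the 12.9% of all genes tested that fell and the 36.2% that were called in either direction. Of 17 Calvin cycle genes tested, 9 fell (52.9%) and 1 rose. FBA1, a chloroplast fructose-bisphosphate aldolase, went from 156 ± 12.0 to 86.7 ± 4.01 FPKM (SD, n = 3; log2 change -0.84; limma, adjusted p = 5.41e-05). PRK, phosphoribulokinase, fell by 0.38 and the aldolase gene FBA2 by 0.32, while CP12-3, a low member of the regulatory CP12 family, rose by 0.23. Of 13 photorespiration genes, 10 fell (76.9%) and none rose: CAT2 (peroxisomal catalase) fell by 0.58, GLDP1 (glycine decarboxylase P protein) by 0.50 and GGT1 (glutamate-glyoxylate aminotransferase) by 0.43.

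Of 15 genes for electron carriers and the ATP synthase, 5 fell (33.3%) and none rose. That is above the 12.9% of all genes that fell and below the 36.2% called in either direction. Plastocyanin PETE1 and ferredoxin FD2 were both down by 0.41 and PGRL1A, of cyclic electron flow, by 0.34. Of 25 genes of chlorophyll synthesis, 5 fell (20%, against 12.9% of all genes) and 1 rose. Together 24% were called, again below the 36.2% over all genes. HEMA1 (glutamyl-tRNA reductase) fell by 0.36, CHLH (the large subunit of magnesium chelatase) by 0.21 and CHLP (geranylgeranyl reductase) by 0.19, the last a call lost in 7 of the 14 alternatives. FLU, a repressor of the pathway, rose by 0.11, a call lost in 10 of the 14 alternatives.

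Of 13 further photosystem and LHC-like genes, 6 fell (46.2%) and none rose. ELIP2, an early light-induced protein of the same superfamily as the antenna proteins, went from 12.9 ± 0.680 to 5.46 ± 1.01 FPKM (SD, n = 3; log2 change -1.11; limma, adjusted p = 0.000151), ELIP1 fell by 0.34 and PSB28, a photosystem II assembly factor, by 0.28. Of 19 genes for assembly, membrane insertion and phosphorylation, 9 fell (47.4%) and none rose, among them the chaperonin subunits CPN60B1 (-0.28) and CPN60A1 (-0.20), which fold the Rubisco large subunit.

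Of 12 regulators of photosynthesis genes, 7 fell (58.3%) and none rose. The GATA factors CGA1 and GNC promote chloroplast development. CGA1 went from 8.72 ± 0.138 to 3.89 ± 0.523 FPKM (SD, n = 3; limma, adjusted p = 5.96e-05) and GNC from 29.7 ± 0.847 to 15.9 ± 0.441 FPKM (log2 change -0.86; limma, adjusted p = 5.76e-06). SIG1, a sigma factor of the plastid RNA polymerase, fell by 0.27. GLK1 and GLK2 are the factors that drive antenna and chlorophyll genes: GLK1 had a change of -0.08 (limma, adjusted p = 0.134), which passed the threshold with median-of-ratios size factors (-0.14; adjusted p = 0.013), after quantile normalization (-0.13; adjusted p = 0.0147) and without mock 3, and GLK2 had one of -0.13 (limma, adjusted p = 0.0477, a call lost in 10 of 14 alternatives). HY5 fell by 0.17 (limma, adjusted p = 0.0317, a call lost in 7 of 14 alternatives).

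The median changes of these lists were -0.28 for photorespiration, -0.16 for the Calvin cycle and the regulators, -0.14 for the further photosystem genes, -0.10 for electron transport and for assembly, and -0.07 for chlorophyll synthesis. The medians within the set were 0.15 for the antenna of photosystem II, 0.12 for that of photosystem I, 0.05 and 0.01 for the subunits of photosystem I and II, and -0.34 for the Rubisco group. The difference between the groups was not tested.

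**Figure D5:**
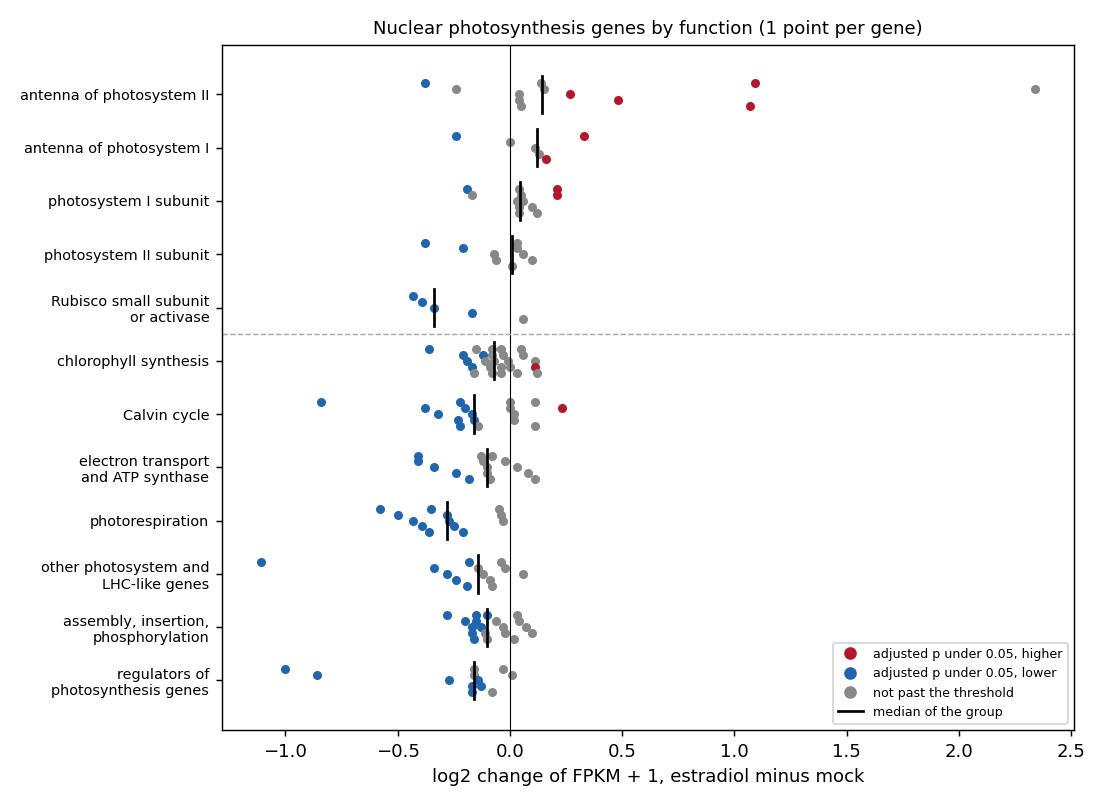
Log2 change of FPKM + 1 (estradiol minus mock, x axis) of each gene, by function, with the call as colour and a black line at each group's median. The 5 groups above the dashed line are the photosystem, antenna and Rubisco set, whose antenna medians are at 0.15 and 0.12, and the 7 below it are the other nuclear photosynthesis lists, whose medians run from -0.28 to -0.07.

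Clock genes were looked at because LHCB and RBCS transcripts follow the time of day. Of 7 tested, 3 rose, where 23.3% of all genes rose, and none fell: GI by 0.37, PRR5 by 0.27 and LUX by 0.27. The morning genes CCA1 and LHY were at 0.63 to 1.06 FPKM in all libraries and were not tested.

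The 10 chloroplast-encoded photosystem and Rubisco genes that were looked at were not called (limma, 0 of 10, also 0 at an unadjusted p under 0.05), and their values differed widely within groups. PSBA stood at 25.2, 25.3 and 99.4 FPKM in mock and at 23.1, 45.1 and 24.9 FPKM in estradiol, with mock 3 far above the rest. The libraries were made from messenger RNA, and chloroplast transcripts mostly lack the tail used to select it.

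The seedlings were used whole, so fewer green cells and less RNA per cell cannot be told apart in any of these values. All 5 markers of mesophyll and green tissue fell, where 12.9% of all genes tested fell. Their summed level was 1467 to 1644 FPKM in mock and 1113 to 1188 FPKM in estradiol. The carbonic anhydrase gene CA1 fell by 0.57 and CA2 by 0.52, and 3 of these markers are also in the lists above. Other genes of those lists did not fall alike: PGK1 (-0.00) and SHM1 (-0.05) were not called, and CP12-3 rose. Of the 44 rows of the set, also transcripts of green tissue, 8 rose and 9 fell. These 5 markers therefore do not stand for all transcripts of green tissue. Marker transcripts of other cell types changed as well, where 23.3% of all genes tested rose and 12.9% fell. Of 5 stomatal lineage markers 4 rose (summed level 25.7 to 28.5 FPKM in mock, 93.8 to 103 FPKM in estradiol). Of 2 shoot epidermis markers 1 rose (105 to 120 and 202 to 235 FPKM). Of 5 root endodermis markers 4 rose (29.9 to 31.3 and 36.6 to 39.1 FPKM) and CASP2 was not called. Of 5 root hair markers 4 fell and 1 rose (110 to 120 and 60.4 to 71.1 FPKM). Of 3 root cap markers (summed level 4.5 to 5.34 and 4.13 to 5.33 FPKM), SMB was too low to be tested and the other 2 were not called. No marker with a row was at 0 in all libraries, and each sum is weighted towards the most abundant markers of its list. Whether the share of any cell type shifted, and the part of such a shift in the photosynthesis genes, was not tested.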

How the data were processed

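The authors deposited 1 table of FPKM values, 1 row per gene name and 1 column per library; 1 further numeric column names no sample and was not used. Libraries were stranded, from poly(A)-selected messenger RNA and read in pairs of 50 bases, per the labels' protocols. The submitters' processing notes name TopHat2 2.0.13, DESeq2 and the genome TAIR10, without saying which step made the table. It holds no read counts, so no counting intervals are given. The titles gave the groups, and columns were matched to samples by name.

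Row names were paired with loci through RefSeq's annotation of TAIR10.1, and 97.4% of the rows matched 1 locus. The row OEC33 was taken as PSBO2 because PSBO1 has the row MSP-1. Coordinates, sequences and shared stretches come from TAIR10.1. The test was limma 3.58.1 under R 4.3.3 (lmFit, eBayes with trend, two-sided, the group its 1 term) on log2(FPKM + 1), for genes with FPKM of at least 1 in at least 3 of 6 libraries. The fit was tested on simulated data. Errors are SD of 3 libraries or SE of the fit. Alternatives were a pseudocount of 0.1, no filter, a filter at 5 FPKM, quantile normalization, median-of-ratios size factors, eBayes without trend, a replicate block, leaving out each library, and, chosen after seeing the data, leaving out estradiol 1 and 3 together; copies were also summed. Each replicate was a set of 40 to 50 seedlings; whether sets were grown separately is not stated, so p-values measure the spread between these samples.

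The genes, lists and markers were chosen with earlier results of these data known. Values in every library are given by rule: genes called with at least 1.5-fold change, both ends of each role's ranking, copies of a family whose libraries differ over 2-fold, the highest gene of each role, and RCA, with some others added after their values were seen. From other lists up to 3 called genes with the largest change are named, and GLK1, GLK2 and HY5 always. CP12-1, CP12-2 and FDH, which belong to these lists, were not analysed here.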

Additional observations from a re-analysis of the deposited data

How the results depend on the processing

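Over 14 alternatives, CAB3, LHCA1, PSAE2, RBCS1B, RBCS2B and RCA kept their call in each, and of the 44 rows 14 changed sign in at least 1, none of them called. Without estradiol 1 and 3, which leaves 1 estradiol library, 3230 genes were called in place of 6928, with 3 rows of the set higher and 4 lower (8 and 9 with all libraries), 0 of the copy sums by limma (3 before) and 26 genes of the other photosynthesis lists and the clock list together (56 before). Fewer samples enter that fit. Median-of-ratios size factors left 4 rows higher, and without a filter 1 copy sum was called; the cause was not tested. Leaving out 1 library at a time gave 5337 to 5794 genes, 7 to 9 rows higher, 8 to 10 lower, 2 to 3 copy sums and 46 to 53 list genes. With copies summed, 6 rows were higher and 6 lower. The median change was -0.014 with median-of-ratios size factors and 0.090 after quantile normalization; these shift the median of all genes by -0.048 and -0.032. MUTE ranged from 9.53 to 10.29.

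Signs turned under median-of-ratios size factors for 13 uncalled rows: LHCB4.1 (-0.013), LHCB4.2 (-0.010), LHCB5 (-0.022), LHCA5 (-0.055), PSAD1 (-0.015), PSAE1 (-0.018), PSAH1 (-0.031), PSAK (-0.022), PSAL (-0.002), PSBO1 (-0.050), PSBP1 (-0.031), PSBQ (-0.023) and PSBR (-0.000). Without estradiol 1 and 3 they turned for CAB2 (-0.003), LHCB4.2 (-0.059), PSAH1 (-0.002) and PSBO1 (-0.004). With 1 library left out, changes ran from -0.029 to 0.099 for LHCB4.2, -0.011 to 0.071 for LHCB5, -0.020 to 0.039 for LHCA5, -0.003 to 0.062 for PSAE1, -0.006 to 0.054 for PSAH1, -0.018 to 0.074 for PSAK, -0.031 to 0.044 for PSBO1, -0.009 to 0.051 for PSBP1 and -0.012 to 0.069 for PSBQ.

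Replicate numbers are not said to pair the samples, and deviations of same-numbered libraries correlated at -0.006, 0.047 and -0.002. With so few libraries this shows no visible pairing but cannot decide whether same-numbered sets were handled together. With the number as a replicate block, 6038 genes were called, 8 rows higher and 8 lower (RBCS3B lost its call), 2 copy sums and 46 list genes, and the median stayed at 0.043.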
